A study of Mus musculus with 9 samples.

Results

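To describe the RNA of the extracellular matrix in mouse female germ cells, the collagen chain genes and the laminin chain genes were taken from the deposited expression tables by their symbols. A gene was a member if its symbol was Col, a number, the letter a and a number (the collagen alpha chains), or Lam, the letter a, b or c and a digit (the laminin alpha, beta and gamma chains). The rule found 54 genes, 43 of collagen and 11 of laminin, among 37980 gene rows with 34617 symbols. Measured values were not used to choose them. Emid2, an older symbol of the collagen gene Col26a1, was not matched by the rule.

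The 4 cell types were E12.5 PGCs (primordial germ cells of the embryonic gonad, 3 libraries), FGSCs (female germline stem cells, 2 libraries), GV oocytes (2 libraries) and MII oocytes (2 libraries). All libraries were labelled as C57BL/6 females at passage 0. By the study's methods, E12.5 PGCs were isolated from XX genital ridges, and FGSCs from the ovaries of pups 3 to 5 days old, both from Mvh-cre; ROSA mT/mG mice in which Cre under the Mvh (Ddx4) promoter labels germ cells, and both were purified by FACS. GV oocytes were taken as the fully grown oocytes of the methods, which came from hormone-primed C57BL/6 mice aged 6 weeks and were freed of cumulus cells with hyaluronidase. How the MII oocytes were collected is not given in the sources used here. Each value is 1 FPKM (fragments per kilobase of transcript, scaled to the mapped fragments of the library) per gene and cell type that the authors pooled over the libraries. Therefore no library's value and no spread can be given, no test was run, and no difference below has a replicate check.

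Collagens are secreted proteins in which 3 alpha chains wind into a triple helix. Fibrillar collagens, such as types I and III, form the load-bearing fibrils of connective tissue and are made mainly by fibroblasts and other mesenchymal cells. Basement membranes are thin sheets made of a collagen IV network and a laminin network, and each laminin molecule joins 1 alpha, 1 beta and 1 gamma chain. In the ovary, a basement membrane encloses the granulosa cells of each follicle, and the oocyte within is surrounded by the zona pellucida.

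The 54 genes were grouped as 11 fibrillar genes, 17 basement membrane genes (6 of collagen IV and 11 of laminin) and 26 other collagen genes. Of these, 40 genes reached 1 FPKM in 1 or more cell types and 11 genes reached 10 FPKM. The other 14 genes stayed under 1 FPKM in every cell type, and 1 of them, Lamb3 (a laminin beta chain), was listed at 0 throughout.

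The balance between the summed FPKM of the fibrillar and the basement membrane genes was reversed between the earlier germ cells and the oocytes. The reversal lay in the laminin genes and not in the collagen IV genes. The basement membrane genes summed to 55.5 FPKM in E12.5 PGCs, 32.0 FPKM in FGSCs, 115 FPKM in GV oocytes and 245 FPKM in MII oocytes, where the single gene Lamb1 gave 188 FPKM. The fibrillar genes summed to 148, 77.5, 26.6 and 10.2 FPKM in the same order of cell types. The sum of the basement membrane genes was thus 0.375 times that of the fibrillar genes in E12.5 PGCs and 0.413 times in FGSCs, against 4.32 times in GV oocytes and 24.0 times in MII oocytes. FPKM is scaled for length and each ratio lies within 1 cell type, so no scaling between cell types changes it.

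**Figure D1:**
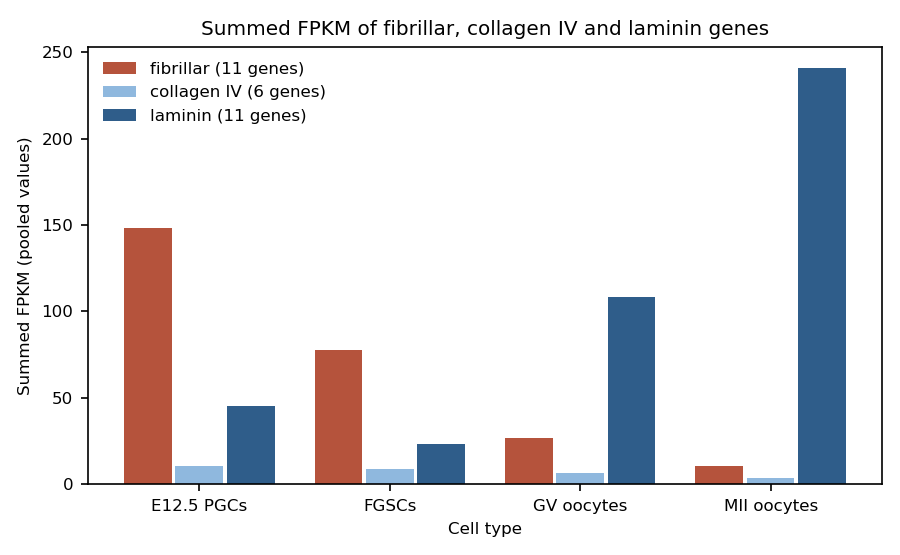
Summed FPKM (vertical axis, linear, pooled values without error bars) of the fibrillar, collagen IV and laminin genes in the 4 cell types. The fibrillar bars are the tallest in E12.5 PGCs (148) and FGSCs (77.5), and the laminin bars are the tallest in GV oocytes (108) and MII oocytes (241).

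Within the basement membrane group, the laminin genes made up most of the sum and the collagen IV genes had another order. The laminin genes summed to 45.3 FPKM in E12.5 PGCs, 23.1 FPKM in FGSCs, 108 FPKM in GV oocytes and 241 FPKM in MII oocytes. The collagen IV genes summed to 10.3, 8.92, 6.45 and 3.77 FPKM, lower in each later cell type and below the fibrillar sum in each. As parts per 1000000 of the FPKM of all genes, the laminin genes held 65.7 in E12.5 PGCs, 55.2 in FGSCs, 193 in GV oocytes and 196 in MII oocytes, so that on this scale the values of GV and MII oocytes lay close together. On the same scale the fibrillar genes held 215, 186, 47.4 and 8.27, again lower in each later cell type, and the collagen IV genes held 14.9, 21.3, 11.5 and 3.07, highest in FGSCs.

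**Figure D2:**
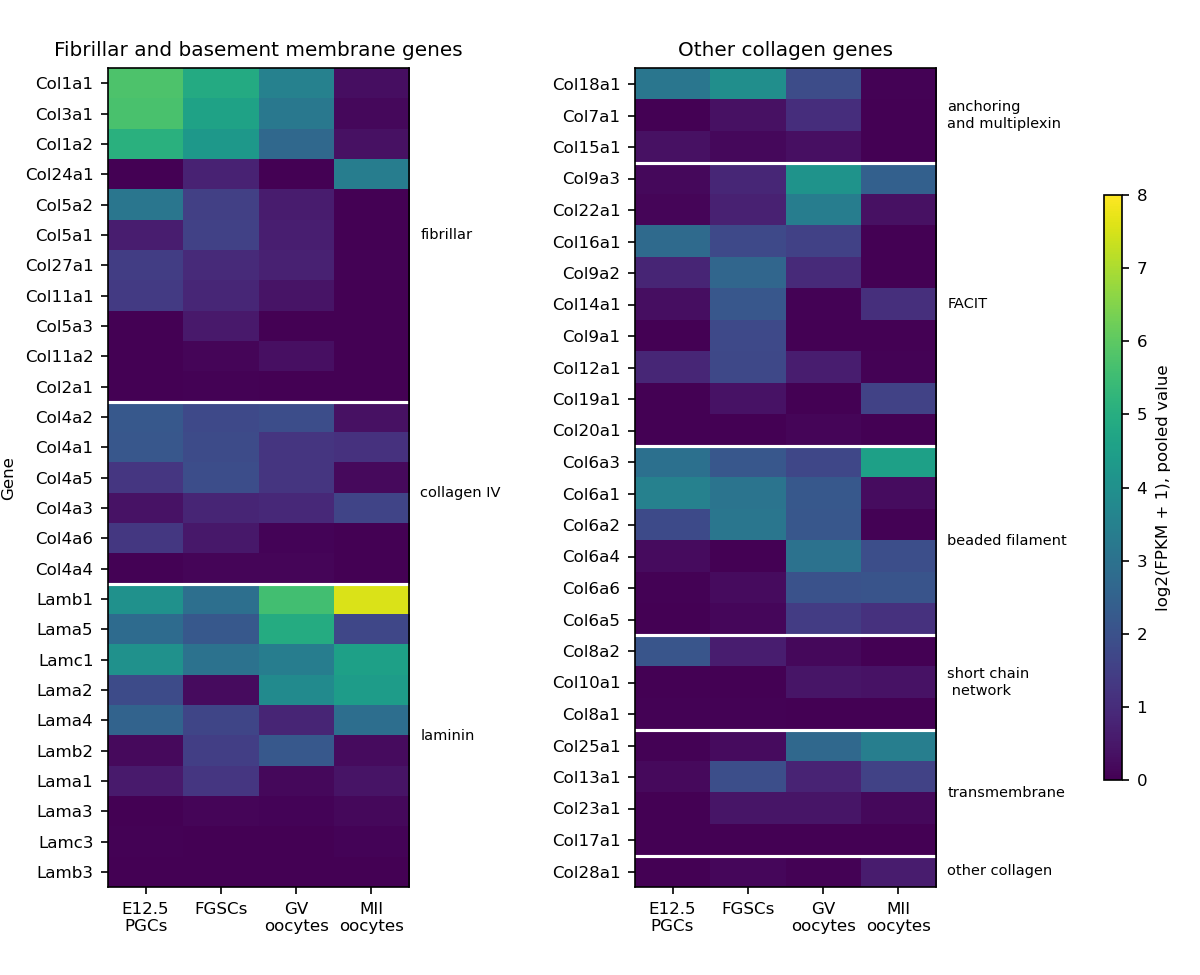
Level of the genes as log2(FPKM + 1) (colour, pooled values) in the 4 cell types (columns), by class (white lines) and from the highest maximum FPKM down within a class. Col1a1, Col3a1 and Col1a2 are brightest at the left, and Lamb1 is brightest in MII oocytes (188 FPKM).

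Col1a1, Col1a2 and Col3a1 were the fibrillar genes with the highest levels, and each was lower in each later cell type. Col1a1 (ENSMUSG00000001506, mm9 chr11:94797537-94814356), the alpha1 chain of collagen I, had 52.8 FPKM in E12.5 PGCs, 28.8 FPKM in FGSCs, 10.4 FPKM in GV oocytes and 0.237 FPKM in MII oocytes. Col1a2 (ENSMUSG00000029661, mm9 chr6:4454813-4491543), the alpha2 chain of collagen I, had 32.8, 18.3, 5.47 and 0.294 FPKM. Col3a1 (ENSMUSG00000026043, mm9 chr1:45368382-45406551), the chain of collagen III, had 50.7, 23.6, 8.31 and 0.136 FPKM. All 3 genes had the same order over the cell types, and only in MII oocytes were they under 1 FPKM.

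A collagen I molecule usually has 2 alpha1 chains and 1 alpha2 chain. The FPKM of Col1a1 was 1.61 times that of Col1a2 in E12.5 PGCs, 1.57 times in FGSCs, 1.90 times in GV oocytes and 0.805 times in MII oocytes, where both were under 1 FPKM. The FPKM of Col3a1 was 0.960, 0.821, 0.800 and 0.577 times that of Col1a1. The ratio of these chains thus stayed within a narrow range in the first 3 cell types, while their levels differed by several-fold.

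The other fibrillar genes were low and, apart from Col24a1, had their highest value before the MII stage. Col5a2, a chain of collagen V that joins the fibrils of collagen I, had 7.83 FPKM in E12.5 PGCs, 1.83 in FGSCs, 0.516 in GV oocytes and 0 in MII oocytes. Its partner Col5a1 had 0.546, 1.92, 0.607 and 0 FPKM and was highest in FGSCs. Col11a1 (collagen XI) and Col27a1 (collagen XXVII), both chains of cartilage fibrils, were highest in E12.5 PGCs with 1.54 and 1.76 FPKM. Col2a1 (collagen II), Col5a3 and Col11a2 stayed under 1 FPKM in all cell types. Col24a1 (collagen XXIV; ENSMUSG00000028197, mm9 chr3:144955435-145214975) was the exception, with 0 FPKM in E12.5 PGCs, 0.709 in FGSCs, 0.019 in GV oocytes and 9.44 in MII oocytes. It made up nearly all of the fibrillar sum of 10.2 FPKM in MII oocytes. Of the 8 fibrillar genes that reached 1 FPKM, 6 were highest in E12.5 PGCs, 1 (Col5a1) in FGSCs and 1 (Col24a1) in MII oocytes.

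The beta chain Lamb1 was the laminin gene with the highest level in both kinds of oocytes. Lamb1 (ENSMUSG00000002900, mm9 chr12:31950098-32014509) had 15.6 FPKM in E12.5 PGCs, 6.64 FPKM in FGSCs, 46.7 FPKM in GV oocytes and 188 FPKM in MII oocytes. Ordered by FPKM among all gene symbols, it stood at rank 4143 in E12.5 PGCs, 6607 in FGSCs, 2001 in GV oocytes and 1076 in MII oocytes. Lamc1 (ENSMUSG00000026478, mm9 chr1:155066051-155179916), the gamma chain it is usually joined with, had 15.6, 7.06, 9.58 and 22.3 FPKM. The FPKM of Lamb1 was 1.00 times that of Lamc1 in E12.5 PGCs and 0.941 times in FGSCs, and it was 4.87 times as high in GV oocytes and 8.42 times as high in MII oocytes. Lamb1 made up 99.1%, 78.5%, 92.9% and 99.9% of the FPKM of the beta chain genes over the 4 cell types. Lamb2, the beta chain of muscle and kidney basement membranes, had 0.140, 1.82, 3.56 and 0.169 FPKM over the 4 cell types and was highest in GV oocytes.

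**Figure D3:**
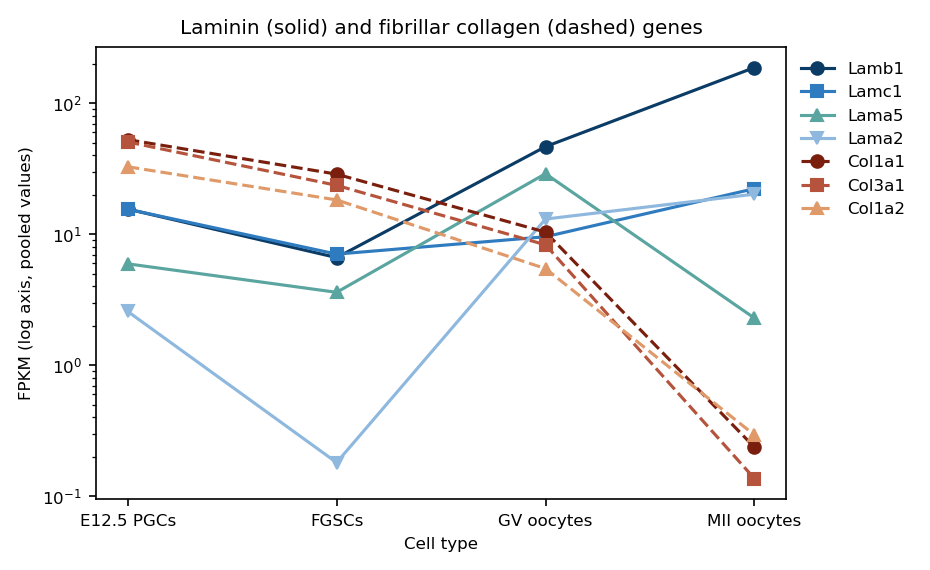
FPKM (log axis, pooled values) of 4 laminin genes (solid lines) and 3 fibrillar collagen genes (dashed lines) in the 4 cell types. The dashed lines run down to between 0.136 and 0.294 in MII oocytes, while Lamb1 reaches 188, and Lama5 peaks in GV oocytes at 29.0.

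The alpha chains, which carry the parts that bind cell receptors, had different orders over the cell types. Lama5 (ENSMUSG00000015647, mm9 chr2:179911077-179960564) had 5.95 FPKM in E12.5 PGCs, 3.60 in FGSCs, 29.0 in GV oocytes and 2.29 in MII oocytes. Lama2 (ENSMUSG00000019899, mm9 chr10:26701093-27336748), the alpha chain of muscle laminin, had 2.57, 0.181, 13.1 and 20.2 FPKM. Lama5 was the alpha chain gene with the highest FPKM in the first 3 cell types (42.8%, 48.2% and 67.4% of the alpha chain sum), and Lama2 in MII oocytes (68.8%). The FPKM of Lama2 was 0.451 times that of Lama5 in GV oocytes and 8.83 times in MII oocytes.

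Lama4, the alpha chain found in vessel walls, had 4.89, 2.204, 0.770 and 6.41 FPKM over the 4 cell types, lowest in GV oocytes. Lama1, the alpha chain of the early embryo, was highest in FGSCs with 1.40 FPKM and had 0.493 FPKM in E12.5 PGCs, 0.139 in GV oocytes and 0.338 in MII oocytes. Lama3, Lamb3 and Lamc3 stayed under 1 FPKM in all cell types.

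The letters before the start site are shown for Lamb1, which was higher in GV oocytes than in E12.5 PGCs and in MII oocytes than in GV oocytes, and for Col3a1, which was lower in both comparisons. The promoter sequences (GRCm38.p6, a later build than that of the tables) held 40 of the 54 genes, with 44 starts. Only the 250 bases before each start were read. The first sequence is chr12:31265043-31265292 (plus strand), with the GC box in capitals (GGGCGG, read here as CCGCCC from the other strand, 2 copies, the first at -84 from the start), and the second is chr1:45311288-45311537 (plus strand), with the TATA box letters TATAAA in capitals at -117.
Lamb1: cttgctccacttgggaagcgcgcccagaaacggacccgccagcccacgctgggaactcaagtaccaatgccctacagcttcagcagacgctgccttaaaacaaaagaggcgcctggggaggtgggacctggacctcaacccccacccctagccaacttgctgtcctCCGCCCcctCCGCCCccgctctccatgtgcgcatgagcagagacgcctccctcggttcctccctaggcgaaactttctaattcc
Col3a1: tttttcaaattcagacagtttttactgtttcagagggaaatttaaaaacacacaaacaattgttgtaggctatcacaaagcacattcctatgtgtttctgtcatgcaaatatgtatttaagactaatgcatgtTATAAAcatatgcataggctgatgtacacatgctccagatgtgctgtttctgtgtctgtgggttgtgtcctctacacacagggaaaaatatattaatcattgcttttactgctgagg
G and C made up 62.0% of the bases before Lamb1 and 35.2% of those before Col3a1, the lowest share of all member promoters. The median share was 60.8% for the fibrillar and 61.2% for the basement membrane promoters, against 52.4% for all promoters. Col3a1 thus does not stand for the fibrillar promoters in this. Col1a1, the fibrillar gene with the highest level, had no promoter among these sequences. Searched on both strands, the GC box stood in 6 of 8 fibrillar and 5 of 11 basement membrane promoters, against 32.7% of all 32851 promoters. The letters TATAAA stood in 2 of 8 fibrillar and 0 of 11 basement membrane promoters, against 12.4% of all. These 2 motifs cannot overlap, and a match is only a match of letters.

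The genes of collagen IV lie in pairs that start back to back, and in no pair did both members keep step over all 4 cell types. Col4a1 and Col4a2, which form the common collagen IV network, were both low. Over the 4 cell types Col4a1 had 3.47, 2.53, 1.36 and 1.22 FPKM, and Col4a2 had 3.56, 2.39, 2.70 and 0.276 FPKM. The FPKM of Col4a1 was 0.975 times that of Col4a2 in E12.5 PGCs and 1.06 times in FGSCs, against 0.505 times in GV oocytes and 4.43 times in MII oocytes. The tables give both genes the same mm9 span (chr8:11187754-11449287), so the span of each gene alone is not given. Reads of the short stretch where the genes overlap may be split between them. In RefSeq (GRCm38.p6) the start of Col4a1, on the minus strand, lies 21 bases beyond that of Col4a2, on the plus strand. The stretch between the 2 starts is shown in capitals within chr8:11312801-11312830 (plus strand), since both genes begin in it.
Col4a2 and Col4a1: cggcAGTGCGCGGGCGGCGTCTCCAAgggg

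Col4a5 and Col4a6, the pair on the X chromosome, lie 1.31 kb apart in the tables. Both had about the same level in E12.5 PGCs (1.42 and 1.46 FPKM), whereas Col4a5 had 2.71 FPKM and Col4a6 0.431 FPKM in FGSCs. The FPKM of Col4a5 was 0.976 times that of Col4a6 in E12.5 PGCs, 6.30 times in FGSCs and 29.1 times in GV oocytes. In MII oocytes both were under 1 FPKM. Col4a3 and Col4a4, whose chains join Col4a5 in the kidney filter, lie 70 bases apart. Col4a3 had 0.301, 0.757, 0.905 and 2.11 FPKM, and Col4a4 had 0.037, 0.090, 0.085 and 0 FPKM. The FPKM of Col4a3 was 8.12, 8.38 and 10.6 times that of Col4a4 in E12.5 PGCs, FGSCs and GV oocytes, where both were under 1 FPKM.

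Of the 13 basement membrane genes that reached 1 FPKM, 5 were highest in MII oocytes (Lamb1, Lamc1, Lama2, Lama4 and Col4a3) and 3 in GV oocytes (Lama5 and Lamb2 among them). Another 3 were highest in E12.5 PGCs (Col4a1, Col4a2 and Col4a6) and 2 in FGSCs (Lama1 and Col4a5). Rescaled to the same summed FPKM of all genes, 1 was highest in MII oocytes (Lamb1), 4 in GV oocytes (Lama2 among them), 5 in FGSCs (Col4a1, Col4a2 and Col4a3 among them) and 3 in E12.5 PGCs (Lamc1 and Lama4 among them). The 8 fibrillar genes were each highest in the same cell type under this rescaling as before it. A second rescaling set the same median for genes with at least 1 FPKM in all 4 cell types. With it, each of these fibrillar and basement membrane genes was highest in the same cell type as before any rescaling.

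Collagen VI, which forms beaded filaments beside basement membranes, showed a split between its chains. The usual chains Col6a1, Col6a2 and Col6a3 are built into 1 molecule. Col6a1 (ENSMUSG00000001119, mm9 chr10:76171536-76188913) had 10.5 FPKM in E12.5 PGCs, 7.52 in FGSCs, 3.63 in GV oocytes and 0.198 in MII oocytes. Col6a2, 85.2 kb away, had 2.51, 7.79, 3.50 and 0.038 FPKM. Col6a3 (ENSMUSG00000048126, mm9 chr1:92663434-92740529) had 6.79, 3.52, 2.25 and 22.3 FPKM. The FPKM of Col6a3 was 0.644, 0.468 and 0.621 times that of Col6a1 in E12.5 PGCs, FGSCs and GV oocytes, against 113 times in MII oocytes.

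Col6a4, Col6a5 and Col6a6 code for chains that resemble Col6a3 and lie side by side on chromosome 9, with gaps of 28.0 and 28.8 kb. All 3 were under 1 FPKM in E12.5 PGCs and FGSCs and above 1 FPKM in both kinds of oocytes. Col6a4 had 0.184, 0, 7.09 and 2.76 FPKM over the 4 cell types. Col6a5 had 0.010, 0.105, 1.69 and 1.21 FPKM, and Col6a6 had 0.028, 0.184, 3.06 and 3.22 FPKM.

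**Figure D4:**
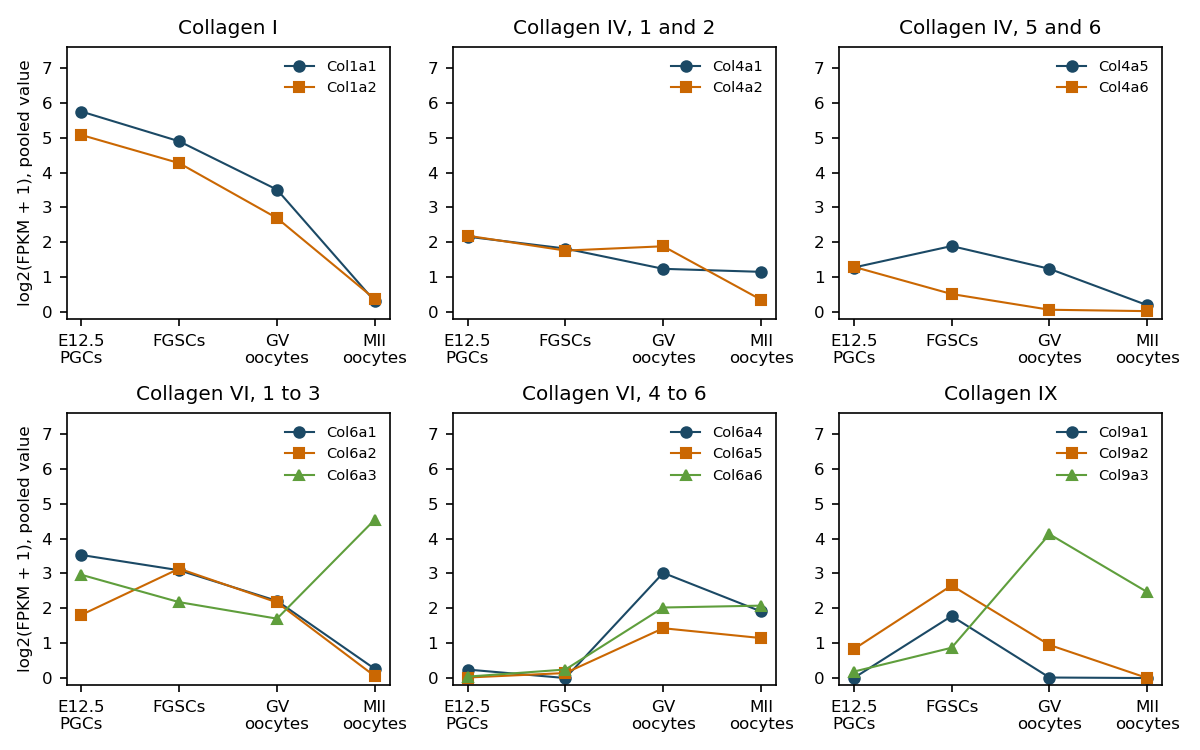
Levels of collagen chains that can share a molecule or a gene cluster, as log2(FPKM + 1) (vertical axis, pooled values) in the 4 cell types. Col1a1 and Col1a2 run together, whereas Col6a3 (22.3 FPKM in MII oocytes) and Col9a3 (16.4 FPKM in GV oocytes) part from their partners.

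The collagens that sit on the surface of fibrils or in other structures were mixed. Collagen IX is built from Col9a1, Col9a2 and Col9a3 chains. Col9a1 and Col9a2 were highest in FGSCs (2.43 and 5.29 FPKM), where Col9a3 had 0.826 FPKM. Col9a3 (ENSMUSG00000027570, mm9 chr2:180332494-180377413) was highest in GV oocytes, with 16.4 FPKM there and 4.52 FPKM in MII oocytes, where Col9a1 and Col9a2 were listed at 0. Col22a1, known from tissue junctions such as that of muscle and tendon, had 0.069, 0.661, 9.50 and 0.296 FPKM. Col16a1 had 5.79 FPKM in E12.5 PGCs and was listed at 0 in MII oocytes, and Col12a1 and Col14a1 were highest in FGSCs (2.36 and 3.54 FPKM).

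Col18a1 (ENSMUSG00000001435, mm9 chr10:76494985-76629293), whose collagen XVIII carries heparan sulfate in basement membranes, had 7.90 FPKM in E12.5 PGCs, 14.4 in FGSCs, 2.62 in GV oocytes and 0.042 in MII oocytes. Col25a1, a collagen that spans the cell membrane, had 0.023, 0.168, 5.54 and 9.60 FPKM. Col13a1, another membrane collagen, was highest in FGSCs (2.79 FPKM). Of the 19 other collagen genes that reached 1 FPKM, 7 were highest in FGSCs, 5 in GV oocytes, 4 in MII oocytes and 3 in E12.5 PGCs. After rescaling to the same summed FPKM the counts were 8, 7, 2 and 2, with Col25a1 and Col6a6 then highest in GV oocytes and Col6a1 in FGSCs.

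For the pairs of cell types, a gene was counted as higher or lower if its difference on the log2(FPKM + 1) scale was at least 2-fold, among genes with 1 FPKM or more in 1 or both cell types. This scale understates the change of low genes. In FGSCs against E12.5 PGCs, 6 of 29 members were higher and 6 were lower, where 24.6% of all genes were higher and 21.0% were lower, so that the share of members was near that of all genes. The 6 higher genes were Col6a2, Col9a1, Col9a2, Col13a1, Col14a1 and Lamb2, and the 6 lower genes were Col3a1, Col5a2, Col8a2, Lama2, Lamb1 and Lamc1. With each cell type rescaled to the same summed FPKM, 14 of 33 members were higher and 3 were lower, beside 39.8% of all genes higher and 8.86% lower, and Col3a1, Lamb1 and Lamc1 were no longer lower. The median log2 difference was -0.81 for the fibrillar genes and -0.59 for the basement membrane genes, against -0.10 for all genes. With that rescaling it was -0.13 and 0.06, against 0.62.

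In GV oocytes against E12.5 PGCs, 12 of 30 members were higher and 11 were lower, beside 34.3% of all genes higher and 31.3% lower. The fibrillar and laminin genes mostly took opposite sides of this count. Of 6 fibrillar genes, 0 were higher and 4 were lower (Col1a1, Col1a2, Col3a1 and Col5a2), and of 7 laminin genes, 5 were higher (Lama2, Lama5, Lamb1 and Lamb2 among them) and 1 was lower (Lama4). The median log2 difference was -2.31 for the fibrillar genes and 1.98 for the laminin genes, against 0.01 for all genes. For the 4 collagen IV genes it was -0.61, with Col4a6 the only one past 2-fold, and for the basement membrane genes as a whole it was -0.04.

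In GV oocytes against FGSCs, 10 of 33 members were higher and 10 were lower, beside 28.1% of all genes higher and 27.9% lower. This comparison shares its GV oocyte values with the one before. Col1a1, Col1a2 and Col3a1 were lower, with log2(FPKM + 1) differences of -1.39, -1.58 and -1.40. Lamb1, Lama5 and Lama2 were higher, with differences of 2.64, 2.70 and 3.57. The median log2 difference was -1.39 for 5 fibrillar genes and 1.64 for 8 laminin genes, against -0.05 for all genes. With each cell type rescaled to the same summed FPKM, 10 of 37 members were higher and 17 were lower, beside 23.1% of all genes higher and 37.6% lower.

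In MII oocytes against GV oocytes, 7 of 30 members were higher and 16 were lower, beside 39.3% of all genes higher and 30.6% lower. Here the median of all genes was itself 0.36, and the members' median was -1.05. The 16 lower genes (53.3% of the members) included Col1a1, Col1a2 and Col3a1, Col6a1 and Col6a2, Col4a2 and Col4a5, and Lama5 and Lamb2. The 7 higher genes were Col6a3, Col14a1, Col19a1, Col24a1, Lama4, Lamb1 and Lamc1. The FPKM of Lamb1 in MII oocytes was 4.02 times that in GV oocytes, and its log2 difference was 1.98. Rescaled to the same median, the log2 difference was 1.62 for Lamb1 and 0.79 for Lamc1. After rescaling to the same summed FPKM that of Lamb1 was 0.86, and neither Lamb1 nor Lamc1 was past 2-fold. With that rescaling 4 of 30 members were higher and 17 were lower, beside 23.5% of all genes higher and 44.9% lower.

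**Figure D5:**
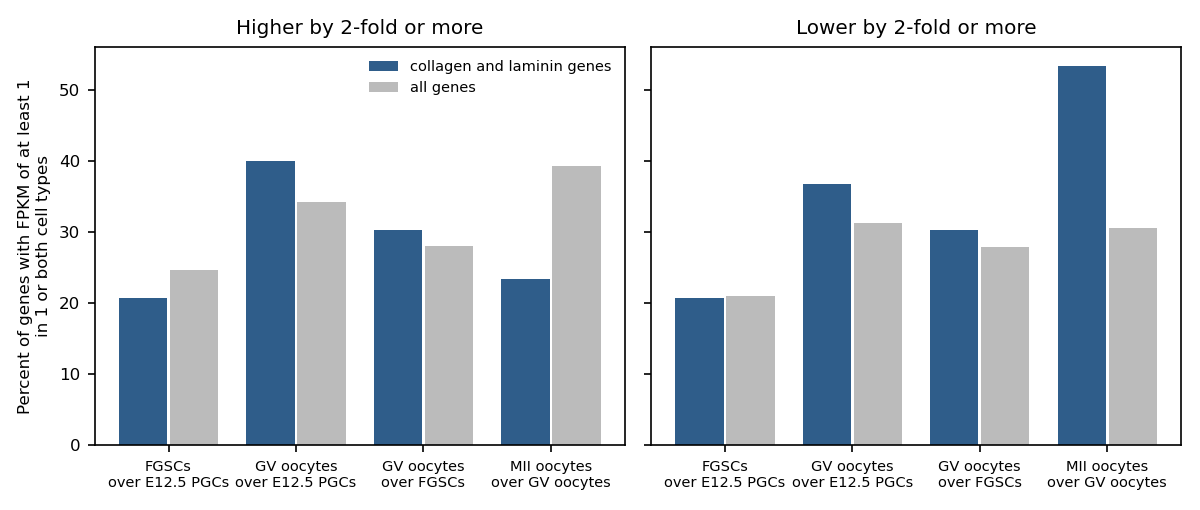
Percent of genes higher (left panel) or lower (right panel) by 2-fold or more on the log2(FPKM + 1) scale, for the collagen and laminin genes (blue) and all genes (grey) in the 4 comparisons. The tallest bar of the members is that of genes lower in MII oocytes than in GV oocytes (53.3% against 30.6% of all genes).

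The 8 markers of mesenchyme, theca and stroma summed to 122 FPKM in E12.5 PGCs, 113 in FGSCs, 28.9 in GV oocytes and 10.4 in MII oocytes, with 0, 0, 4 and 7 of the 8 under 1 FPKM. Rescaled to the same summed FPKM of all genes, they summed to 128, 195, 37.3 and 6.11 FPKM and were highest in FGSCs, beside 156, 134, 34.4 and 5.99 FPKM for the fibrillar genes. Nr2f2, a transcription factor of gonadal mesenchyme, had 35.1, 20.8, 1.65 and 0.312 FPKM, and Tcf21, another, had 21.4, 31.6, 0.202 and 0.231 FPKM. Acta2 of the same list had another order, with 5.52, 8.39, 14.2 and 0.834 FPKM. It was highest in GV oocytes, where it was the largest part of the sum. The 8 granulosa and pregranulosa markers summed to 116, 263, 24.6 and 18.5 FPKM, with 2, 1, 1 and 6 of the 8 under 1 FPKM. Foxl2 had 0, 1.13, 3.39 and 0.038 FPKM and Amh 0, 0, 2.06 and 0.062 FPKM, both highest in GV oocytes. Gata4 alone gave 15.7 FPKM of the sum in MII oocytes. The 4 erythroid markers summed to 15526, 5887, 37.5 and 1.38 FPKM, and the 6 endothelial markers to 42.4, 45.7, 4.95 and 45.9 FPKM, of which Pecam1 alone gave 43.6 FPKM in MII oocytes. The 6 surface epithelium markers summed to 82.5, 116, 92.8 and 2.41 FPKM. In GV oocytes the keratins Krt18 (43.5 FPKM), Krt8 (34.7 FPKM) and Krt19 (12.9 FPKM) gave nearly all of this sum. Upk3b of the same list had 22.1, 22.4, 0.073 and 2.34 FPKM, and Upk1b had 11.5, 3.34, 0.042 and 0 FPKM. The 4 leukocyte markers summed to 9.64, 8.88, 1.36 and 10.1 FPKM, of which Cd68 alone gave 8.15 FPKM in MII oocytes. The part of such cells in the levels of the collagen and laminin genes was not tested. In bulk samples such as these, fewer cells of a type and less RNA per cell cannot be told apart.

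The germ cell markers were present in all cell types. The germ cell RNA helicase Ddx4 had 64.0, 59.0, 31.9 and 17.2 FPKM in the 4 cell types, and none of the 5 germ cell markers was under 1 FPKM in any of them. The 4 oocyte markers (Zp3, Gdf9, Bmp15 and Nobox) summed to 10.3 FPKM in E12.5 PGCs, 10.1 in FGSCs, 7296 in GV oocytes and 15733 in MII oocytes. In E12.5 PGCs and FGSCs, Bmp15 and Nobox were under 1 FPKM.

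The genes that fold and modify collagen had differing orders over the cell types. Serpinh1, the chaperone of collagen in the endoplasmic reticulum, had 107 FPKM in E12.5 PGCs, 133 in FGSCs, 8.999 in GV oocytes and 0.063 in MII oocytes. P4hb, a protein disulfide isomerase that is also a subunit of prolyl hydroxylase, had 84.4, 163, 174 and 479 FPKM, and the prolyl isomerase Ppib had 93.6, 85.3, 81.0 and 202 FPKM. Tmem38b, an ion channel of the endoplasmic reticulum needed for collagen synthesis, had 3.95, 3.48, 3.05 and 65.6 FPKM. Of 15 tested genes of this list, 0 were higher and 10 were lower in GV oocytes than in FGSCs, and of 14 tested genes, 5 were higher and 4 were lower in MII oocytes than in GV oocytes, which became 3 higher and 6 lower of 13 with each cell type rescaled to the same summed FPKM. In FGSCs against E12.5 PGCs, 4 of 16 were higher and 1 was lower (9 and 1 after rescaling), and in GV oocytes against E12.5 PGCs, 2 of 14 were higher and 8 were lower. Among all genes, 28.1% were higher and 27.9% lower in GV oocytes than in FGSCs, and 34.3% and 31.3% in GV oocytes against E12.5 PGCs. In MII against GV oocytes the shares of all genes were 39.3% and 30.6%, or 23.5% and 44.9% after rescaling. In FGSCs against E12.5 PGCs they were 24.6% and 21.0%, or 39.8% and 8.86%, so that 4 higher of 16 was near the share of all genes.

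Genes that process or bind fibrils were mostly lower in GV oocytes than in FGSCs. Of the 9 tested processing and crosslinking genes, 2 were higher and 6 were lower, and of the 8 tested proteoglycans and fibril partners, 0 were higher and 6 were lower. Among all genes, 28.1% were higher and 27.9% were lower. Against E12.5 PGCs the counts for GV oocytes were 0 higher and 3 lower of 8 processing and crosslinking genes, and 0 higher and 6 lower of 7 proteoglycans and fibril partners. After rescaling to the same summed FPKM these were 2 higher and 3 lower of 8, and 0 higher and 4 lower of 7. Dcn (decorin), a proteoglycan that binds collagen I and is also in the stroma list, had 31.6, 25.2, 4.34 and 7.81 FPKM over the 4 cell types. Pcolce, an enhancer of procollagen processing, had 12.0, 35.3, 6.09 and 1.00 FPKM, whereas the crosslinking enzyme Loxl2 had 4.09, 3.12, 8.80 and 19.8 FPKM. The matrix protease Mmp2 had 10.4, 17.2, 11.7 and 27.1 FPKM, and Mmp14, which activates it, had 0.913, 21.0, 2.88 and 0.025 FPKM. Of the tested genes for degradation and its inhibitors, 3 of 5 were lower in GV oocytes than in FGSCs and 0 were higher. The lower genes were the protease Mmp14 and the inhibitors Timp1 and Timp3, while the protease Mmp2 and the inhibitor Timp2 were not past 2-fold.

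Of the 13 tested genes of basement membrane partners, 0 were higher and 8 were lower in GV oocytes than in FGSCs. In FGSCs against E12.5 PGCs, 5 of 13 were higher and 0 were lower, and in GV oocytes against E12.5 PGCs, 1 was higher and 5 were lower. In MII oocytes against GV oocytes, 2 of 8 were higher and 3 were lower, or 1 and 5 of 7 after rescaling to the same summed FPKM. Among all genes the shares here were 39.3% and 30.6%, or 23.5% and 44.9% after rescaling. They were 28.1% higher and 27.9% lower in GV oocytes against FGSCs. Against E12.5 PGCs they were 24.6% and 21.0% in FGSCs, and 34.3% and 31.3% in GV oocytes. Nid2 (nidogen 2), which links the laminin and collagen IV networks, had 6.65, 23.7, 0.313 and 0.084 FPKM. Sparc, a collagen-binding matrix protein, had 65.3, 139, 38.2 and 22.1 FPKM, and the heparan sulfate proteoglycan gene Agrn (agrin) had 9.54, 11.9, 6.75 and 1.35 FPKM. Smoc2, a relative of Sparc, had 1.82, 5.23, 8.95 and 95.9 FPKM, and Egfl6, the other partner higher in MII oocytes than in GV oocytes, had 1.80, 4.56, 1.46 and 8.09 FPKM.

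Among the receptors, the laminin receptor subunit Itga6 (integrin alpha6) had 78.9 FPKM in E12.5 PGCs, 70.5 in FGSCs, 23.9 in GV oocytes and 200 in MII oocytes. Its partner Itgb1 (integrin beta1) had 24.0, 26.7, 7.95 and 14.5 FPKM, and the collagen receptor Ddr2 had 1.10, 1.74, 3.21 and 22.0 FPKM. Rpsa, a ribosomal protein also described as a laminin receptor, had 222, 242, 155 and 5.05 FPKM. Of 10 tested receptor genes, 0 were higher and 4 were lower in GV oocytes than in FGSCs, or 0 and 7 after rescaling to the same summed FPKM. Of 9 tested, 4 were higher and 2 were lower in MII oocytes than in GV oocytes, or 2 and 2 of 8 after rescaling. In FGSCs against E12.5 PGCs, 4 of 9 were higher and 0 were lower, or 6 and 0 of 10 after rescaling, and in GV oocytes against E12.5 PGCs, 3 of 8 were higher and 2 were lower. Among all genes, 28.1% were higher and 27.9% lower in GV oocytes than in FGSCs, or 23.1% and 37.6% after rescaling. The shares against E12.5 PGCs were 24.6% and 21.0% in FGSCs (39.8% and 8.86% rescaled), and 34.3% and 31.3% in GV oocytes. In MII against GV oocytes they were 39.3% and 30.6% (23.5% and 44.9% rescaled), so that 4 higher of 9 was near the share of all genes.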

How the data were processed

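RNA was sequenced from 9 libraries of 4 cell types. The authors mapped the reads and deposited 6 tables, 1 for each pair of cell types, with 1 FPKM value per gene and cell type, pooled by them over the libraries. The submitters' processing notes name TopHat2, Cufflinks 2.2.1 and mm9, while the paper's methods name mm10 and RefSeq. The tables carry Ensembl gene identifiers and mm9 coordinates, which are printed as given. The authors' fold changes, test statistics, p-values and q-values in these tables were not used. A status of the authors' test was used only in 1 alternative. The tables hold no counts, so the depth and the precision it gives are unknown. An FPKM of 0 may also be a failed estimate, though the authors' test status marked no member as failed (FAIL) or as having too much data (HIDATA). The labels give oligo(dT) priming of the cDNA.

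E12.5 PGCs and FGSCs were read from 1 table and GV and MII oocytes from another, and no value differed between tables. No member's symbol was repeated. The values of 1 member are not reported here, though the counts and sums include it. For other repeated symbols the row with the highest maximum FPKM was kept. Differences are on the log2(FPKM + 1) scale (pseudocount 1) among genes with FPKM of at least 1 in 1 or both cell types, past 2-fold. The counting code was run on simulated data, with set changes past 2-fold in genes with 10 FPKM or more in E12.5 PGCs. This checked the code only and did not cover lower genes. Named members are those with 10 FPKM or more and their partner chains, together with members given as counts or exceptions, and from each related list the 4 genes with the highest maximum FPKM. A few further members and markers were named after their values were seen. The members and lists were chosen with earlier results of these data known. Alternatives changed the pseudocount, filter, fold, scaling, tables, rows and the genes counted as basement membrane. Python 3.11.15, pandas 2.3.3, numpy 2.4.6 and matplotlib 3.10.9 were used.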

Additional observations from a re-analysis of the deposited data

How the results depend on the processing

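No paired analysis was possible because the tables hold 1 pooled value per cell type. For the same reason no library was left out and no interval is given, and depth limits every low value to an unknown extent. Of the values recomputed under the alternatives, 133 stayed the same (within 1.5-fold, with the same sign), 27 moved and 8 reversed, and the ratio of basement membrane to fibrillar genes moved only when collagen IV stood for the basement membrane genes. The cause was not tested except where the smaller set of genes gives it. Of the 133, 20 came from reading the other tables and 20 from summing the rows of a symbol. These could not change, since no value differed between tables and no member's symbol was repeated.

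With a pseudocount of 0.1 the fibrillar median in MII over GV oocytes was -4.39. With no filter the fibrillar median was -0.72 in GV oocytes over E12.5 PGCs, -0.75 in GV oocytes over FGSCs and -0.60 in MII over GV oocytes. With a filter of FPKM of at least 5, 2 members were higher in FGSCs over E12.5 PGCs, 5 were lower in GV oocytes over FGSCs and 8 were lower in MII over GV oocytes, and the basement membrane median was 1.98 in GV oocytes over E12.5 PGCs, 2.64 in GV oocytes over FGSCs and 0.87 in MII over GV oocytes.

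The 16 values rescaled to the same median of genes with at least 1 FPKM in all 4 cell types stayed the same. With the same summed FPKM in each cell type, FGSCs over E12.5 PGCs had 14 members higher and 3 lower, a fibrillar median of -0.13 and a basement membrane median of 0.0574. The basement membrane median was 0.43 in GV oocytes over E12.5 PGCs, -0.0385 in GV oocytes over FGSCs (17 members lower) and -0.68 in MII over GV oocytes (4 members higher). At 4-fold, 0 members were higher and 0 lower in FGSCs over E12.5 PGCs, 7 higher and 4 lower in GV oocytes over E12.5 PGCs, 2 lower in GV oocytes over FGSCs, and 3 higher and 6 lower in MII over GV oocytes.

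With collagen IV alone as the basement membrane genes, the ratio to the fibrillar genes was 0.0693 in E12.5 PGCs, 0.115 in FGSCs, 0.243 in GV oocytes and 0.371 in MII oocytes. The fibrillar sum was then the larger in every cell type, so the reversal between the earlier germ cells and the oocytes was not seen. The median in GV oocytes over FGSCs was -0.58. With laminin alone the median was 1.98 in GV oocytes over E12.5 PGCs, 1.64 in GV oocytes over FGSCs and 0.59 in MII over GV oocytes. With Col7a1, Col15a1 and Col18a1 added, it was -1.04 in MII over GV oocytes.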
